A study of Mus musculus with 3 samples.

Results

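Dense clusters of REV-ERB alpha binding sites in mouse liver are the subject of this section. A cluster is a chain of neighbouring REV-ERB alpha peaks on 1 chromosome in which each peak centre lies at most 10000 bp from the next, and chains of 6 or more peaks were kept, together with the REV-ERB beta peaks between the centres of their first and last alpha peak. The rule found 286 chains. They held 2039 of 24461 alpha peaks (8.34%), with 1259 of 22097 beta peaks (5.70%) between their ends. The members were chosen by the positions of the alpha peaks, so the number, spacing and height of the alpha peaks are given as descriptions. The beta list was not used to choose the chains.

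The data are chromatin immunoprecipitation with sequencing (ChIP-seq) from the livers of male C57BL/6 mice aged 20 weeks, which were kept for 3 days in a cycle of 12 hours of light and 12 of darkness and killed at zeitgeber time 8, 8 hours after lights on. There was 1 library with an antibody to REV-ERB alpha, 1 with an antibody to REV-ERB beta and 1 of input DNA without an antibody. The values therefore carry no error between animals, and none was tested across samples. How many animals a library held is not given in the sources used here, and recognition of 1 receptor by the antibody to the other was not tested. The tags come from whole liver, so binding in more cells and more binding per cell cannot be told apart. Positions are in the mm9 assembly. No mm9 sequence or gene annotation was used here, so chains are named by position, the peaks are not assigned to genes and the liver label was not checked against marker genes.

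REV-ERB alpha and REV-ERB beta, encoded by Nr1d1 and Nr1d2, are nuclear receptors that bind heme and repress transcription, largely by recruiting the corepressor NCoR with the histone deacetylase HDAC3. They bind DNA at a single hexameric half-site with an A/T-rich flank, the element that the ROR activators also use, or at pairs of such half-sites, and at many liver enhancers beside other hepatocyte factors. In liver they link the circadian clock to lipid, bile acid and glucose metabolism, and REV-ERB alpha is abundant in the light phase. Several binding sites within a few kilobases are a feature of long enhancer regions, where factors bind at a series of separate elements.

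Most chains were small. Of the 286 chains, 141 held 6 alpha peaks, 71 held 7 and 37 held 8, and 23 held 10 or more. The largest held 18. The chains spanned a median of 23.5 kb (quartiles 19.1 and 29.4), from 8.15 to 70.5 kb, and 7.19 Mb in all. Neighbouring centres lay a median of 3651 bp apart (quartiles 1542 and 6153). Of the 1753 neighbour distances 62.2% were at most 5000 bp and 14.7% at most 1000 bp.

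At the edge of the rule, the 240 chains of 5 peaks had a median of 34 tags per alpha peak and the 141 chains of 6 also 34. Mean input was 2.98 tags in chains of 5 and 2.87 in chains of 6. The widest distance inside a chain was 9975 bp and the closest alpha centre beyond a chain end lay at 10002 bp. At 66 of 569 chain ends the next alpha peak lay at most 12000 bp away, so a slightly wider limit would have lengthened these chains. The closest chains of 6 or more were a pair on chromosome 18, at 12818869 to 12848358 with 9 peaks and at 12858805 to 12881145 with 7, whose facing peaks stood 10599 bp apart.

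All 20 chromosomes of the list carried chains. Chromosome 8 had the most, with 26 chains that held 193 of its 1415 alpha peaks (13.6%, 95% Wilson interval 11.9 to 15.5). Chromosomes 5 (11.2%), 18 (11%) and 1 (10.2%) followed. The lowest shares on autosomes were on chromosomes 2 (4.99%), 13 (5%) and 12 (5.11%). The X chromosome, which male mice carry once, had 1 chain with 6 of its 193 peaks. The densest chromosome by alpha peaks, chromosome 19 with 15.7 per Mb, had 9.68% of its peaks in chains, less than chromosome 1 with 8.40 per Mb. The beta list as used here holds no peak on chromosome 8, so each comparison with beta rests on the 260 chains and 1846 alpha peaks of the other 19 chromosomes.

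The largest chain lay on chromosome 14 at 26270759 to 26329205 and held 18 alpha peaks over 58.4 kb. In order along the chromosome the alpha tags in the peak windows were 27, 32, 54, 86, 24, 49, 147, 90, 73, 64, 121, 75, 58, 71, 42, 43, 66 and 146. Input tags in the same windows ran from 0 to 10. The chain had a pair of summits of almost equal height, the seventh peak at 30144 bp from the first with 147 tags and the last peak at 58294 bp with 146. Beta peaks overlapped 14 of the 18. The beta tags at these were 26, 60, 79, 208, 26, 55, 265, 88, 85, 140, 90, 63, 65 and 56, and the unmatched alpha peaks were the ninth, thirteenth, fifteenth and sixteenth. The receptors differed most at the last peak, where 146 alpha tags stood against 56 beta tags, while 147 alpha tags at the seventh stood against 265.

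The second chain in size, on chromosome 5 at 66435261 to 66505710, had a different beta profile. Its 17 alpha peaks held 20 to 84 tags, with a median of 35.0, and its 12 beta partners held 46 to 195. At 4 of these the ratio of alpha to beta tags was at least 2-fold below the median ratio of all shared peaks. The farthest was the fourteenth peak, 51242 bp from the first, with 25 alpha and 182 beta tags, followed by the seventeenth with 28 and 123. A further 3 beta peaks, with 25, 85 and 45 tags, lay between alpha peaks, 646, 819 and 812 bp from the nearest alpha centre. The alpha peaks of the chain summed to 691 tags, and the 13 beta peaks with a centre between its ends to 1310.

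**Figure D1:**
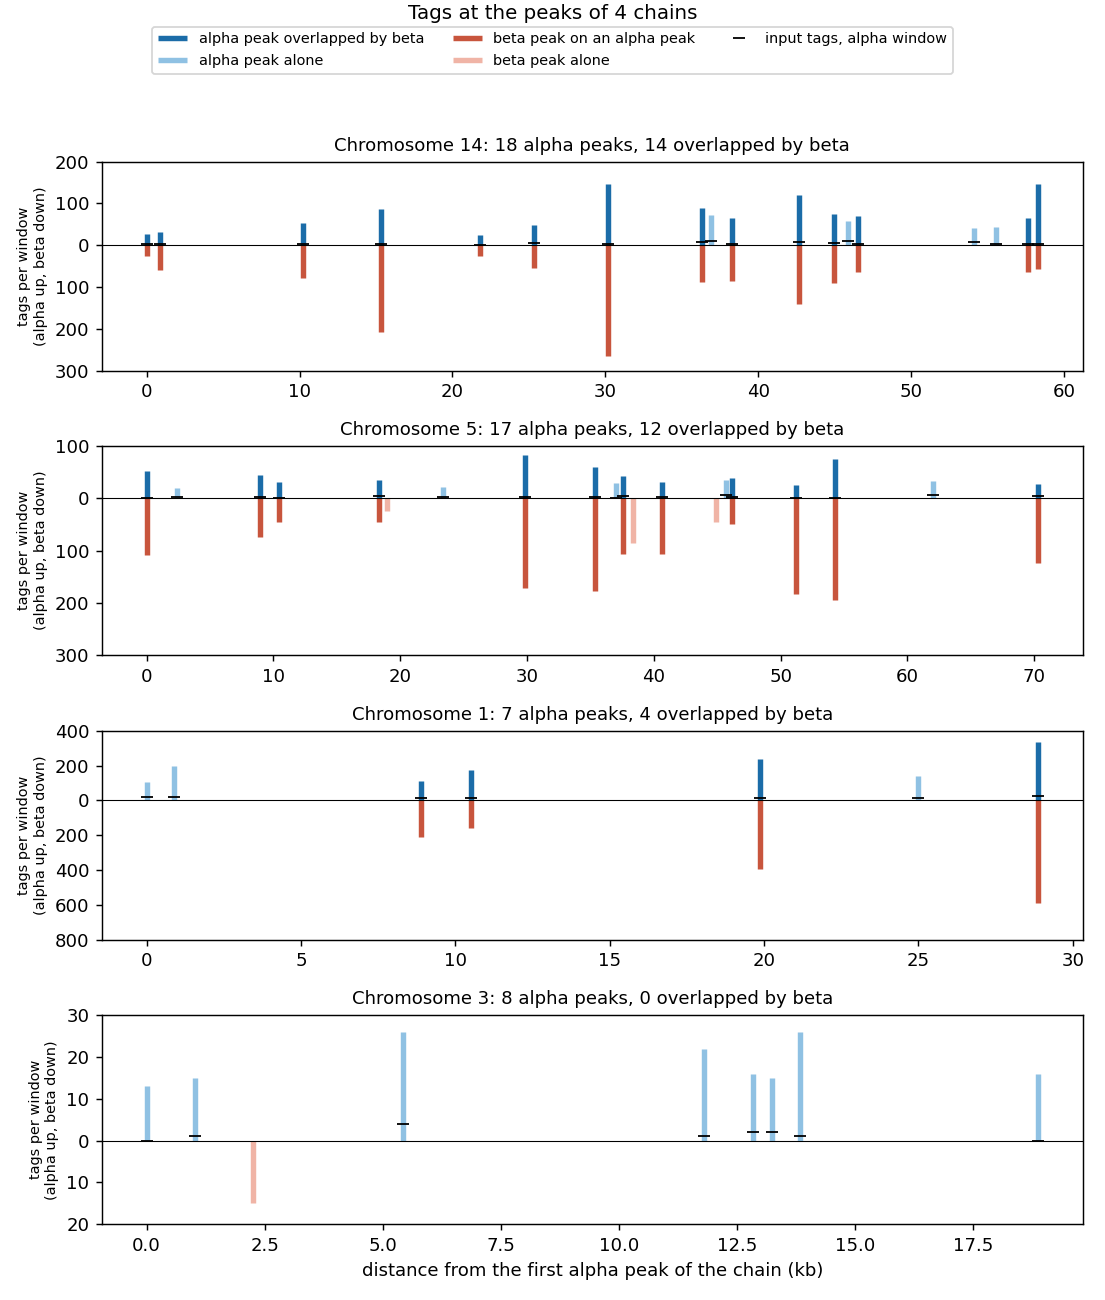
Tags per peak window (vertical axis; alpha upward, beta downward, each bar 1 peak) against distance in kb from the first alpha peak, for 4 chains: the largest with 18 alpha peaks, the second with 17, the chain of highest input with 7 and a chain of 8 with no beta partner. Beta partners are drawn at the alpha position, dark bars are overlapping peaks, pale bars are peaks of 1 list only, and short black lines give input tags, which reach 25 in the third panel.

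The other large chains differed in how far their tallest peak stood out. On chromosome 5 at 125766471 to 125821392, 16 alpha peaks held 17 to 108 tags, and 11 had a beta partner. Its tallest alpha peak, the fourth, had 108 alpha and 44 beta tags, whereas the tallest beta partner, with 144 tags, stood on the first alpha peak with 79. On chromosome 9 at 69132885 to 69187339, 14 alpha peaks held 17 to 104 tags, and the last peak alone, with 104 alpha and 167 beta tags, carried 23.8% of the alpha tags. On chromosome 11 at 100671960 to 100720833, 14 peaks held 15 to 45 tags, and the tallest carried 11% of the tags. This chain had beta partners at 5 of its 14 peaks, with 23 to 51 beta tags.

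A chain of 13 on chromosome 9 at 46004906 to 46043550 was among the strongest, with 869 alpha tags. At all 8 of its shared peaks the centred log2 ratio of alpha to beta tags was below 0, from -1.29 to -0.35. The tallest, 18908 bp from the first, held 152 alpha and 400 beta tags, and the tenth 85 and 233. Yet its second tallest alpha peak, the twelfth with 93 tags, had no beta partner. On chromosome 6 at 90411348 to 90465137, 9 of 13 peaks were shared. The ratio moved along this chain, from 73 alpha and 48 beta tags at the eighth peak to 39 and 130 at the tenth and 60 and 196 at the eleventh. On chromosome 1 at 67150128 to 67202437, beta partners stood at 5 consecutive peaks of 13, the second to the sixth, and at none of the remaining 8. These 8 unmatched peaks held 18 to 38 alpha tags.

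The last chains among the 10 largest were on chromosome 13 at 102506663 to 102554888, with 12 peaks and 8 partners, and on chromosome 5 at 136150300 to 136189603, with 11 peaks and 5 partners. In the latter the peaks with the most alpha tags, 124 and 107, were the unmatched second and the fourth. Both had another peak close by: the first alpha peak, shared with 82 beta tags, lay 473 bp from the second, and a beta peak of 36 tags lay 317 bp from the fourth.

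The chain with the most alpha tags was small. It lay on chromosome 1 at 90155897 to 90184922 and had 7 alpha peaks with 107, 195, 110, 177, 236, 142 and 336 tags, 1303 in all. Beta peaks overlapped 4 of them, with 209, 158, 394 and 592 tags. Input was also the highest of any chain here: the 7 alpha windows held 19, 17, 13, 12, 11, 14 and 25 input tags, a mean of 15.9, against 5.50 in the chain next in order. The part of this input in the tag counts of either receptor was not tested. The 5 chains with the highest mean input included 3 others with 6 peaks, on chromosome 11 at 79560189 to 79592408 and on chromosome 7 at 20402888 to 20428738 (5.50 each) and on chromosome 10 at 27798645 to 27825261 (5.17), and 1 with 7, on chromosome 18 at 85053814 to 85079557 (5.14).

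The others of the 5 strongest chains by summed alpha tags were the chain of 18 on chromosome 14 (1268 tags), a chain of 10 on chromosome 2 at 167648994 to 167686292 (1091), the chain of 13 on chromosome 9 (869) and a chain of 7 on chromosome 15 at 7079984 to 7093908 (806). Their mean input was 4.33, 5.10, 3.31 and 3.14 tags, in each case above the median of 2.95 over all chains. The chromosome 2 chain was high throughout: its alpha tags were 124, 102, 101, 53, 141, 195, 93, 110, 71 and 101, so its lowest peak was above the median of 36.0 for chain peaks. The chromosome 15 chain rose from 15 and 18 tags at its first peaks to 240 and 246 at the third and the fourth, 903 bp apart, with 4 and 1 input tags and 215 and 179 beta tags.

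The most compact chains by peaks per kb were on chromosome 4 at 119740186 to 119748335, with 6 peaks in 8.15 kb, on chromosome 19 at 3665569 to 3674791, with 6 in 9.22 kb, on chromosome 1 at 193237555 to 193246891, with 6 in 9.34 kb, on chromosome 4 at 139178828 to 139188423, with 6 in 9.60 kb, and on chromosome 13 at 52915407 to 52928184, with 7 in 12.8 kb. Their sharing with beta ranged widely. All 7 peaks of the chromosome 13 chain and all 6 of the second chromosome 4 chain had partners, against 3 of 6 in the first, 3 of 6 on chromosome 1 and 1 of 6 on chromosome 19.

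Chain peaks were higher than other alpha peaks. The median chain peak held 36.0 tags (quartiles 23.0 and 57.0), against 27.0 tags (19 and 43.0) for the other 22422 alpha peaks. Height rose with chain size, from 23.0 tags at peaks alone in their chain to 28.0 in chains of 2, 33.0 in chains of 4, 34 in chains of 6 and 39.0 in chains of 10 or more. Medians of unique tag positions were 30.0 and 23.0, and tags per unique position had medians of 1.19 and 1.17, so repeated tags differed little. Since the alpha list chose the chains, the difference in height was not tested.

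Input was slightly higher in chains too. It averaged 3.01 tags per window (SD 2.32 over 2039 peaks), against 2.63 (SD 2.02) elsewhere, and 2.97 without the chromosome 1 chain of high input. Within quartiles of alpha tags the difference was small, and chains were lower only in the lowest. In that quartile, with 11 to 19 tags, mean input was 1.59 in chains and 1.70 elsewhere. In the second it was 2.28 and 2.23, and in the third 3.17 and 2.97. In the highest, with 45 to 456 tags, it was 3.84 and 3.79. The 10 kb around a chain peak held a median of 315 tags and that around other peaks 196, which by construction includes the tags of neighbouring peaks. The tag density of the window over that of its surroundings was lower in chains, 8.02-fold against 11.3-fold, and the part of the neighbouring peaks in this was not tested.

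Within a chain 1 peak often stood above the rest. The tallest peak held a median of 27.8% of the chain's alpha tags (quartiles 23.8 and 32.9) and a median of 2.21 times the tags of the chain's median peak. Outside chromosome 8 the tallest peaks had a median of 80.0 tags (range 26.0 to 452) and the lowest of each chain 18.0 (12.0 to 107). The tallest peak was the first or last of its chain in 66 of 286 chains (23.1%), where such end peaks make up 28.1% of the members. End peaks had a median of 32.0 tags and inner peaks 38.0. The largest share, 60.3%, was found in a chain singled out after its values were seen, on chromosome 11 at 7033842 to 7052704. Its 6 alpha peaks held 25, 47, 57, 35, 133 and 452 tags, and the beta partner of the last held 163.

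Outside chromosome 8, beta peaks overlapped 1190 of the 1846 chain peaks by at least 1 bp (64.5%), against 12124 of 21200 other alpha peaks (57.2%) and 57.8% of all alpha peaks there. The difference was 7.28 percentage points, with a 95% interval of 4.74 to 9.81 that takes chains of any size as units and leaves out variation between libraries. The share in chains was the higher on 18 of 18 autosomes compared. The gap was narrowest on chromosome 6, with 59.1% in chains and 58.4% elsewhere, and widest on chromosome 13, with 82.1% and 59.6%. Peaks alone had the lowest share. The share rose up to chains of 5, and beyond that there was no steady increase. Chains of 2 to 5 together had 63.3% (interval over chains 62.3 to 64.2), close to the 64.5% of chains of 6 or more. The share was 49.8% for peaks alone (interval over chains 48.8 to 50.8), 61.3% in chains of 2, 63.8% in chains of 3, 65.4% in chains of 4 and 67.8% in chains of 5. It was 65.8% in chains of 6 and of 7, 56.9% in chains of 8 (50.9 to 62.8), 70.1% in chains of 9 (58.7 to 81.5) and 62.7% in chains of 10 or more (55.0 to 70.4).

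Sharing followed height, in chains as elsewhere. Of chain peaks with 11 to 16 tags 28.0% were shared (Wilson interval 20.1 to 37.5), and of those with 71 to 456 tags 88.2% (84.1 to 91.4). Other alpha peaks gave 26.5% and 89.8% in the same ranges. Over the 10 ranges of tags the chain share was higher in 4 and lower in 6. The widest gap was at 40 to 50 tags, with 71.5% in chains (65.7 to 76.7) and 80.2% elsewhere (78.5 to 81.9). When the other peaks were weighted to the height distribution of the chain peaks, 66.5% were shared. The difference between the chain share and this value was -2.06 percentage points (interval -4.50 to 0.382). At matched height no higher sharing in chains was therefore detectable.

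**Figure D2:**
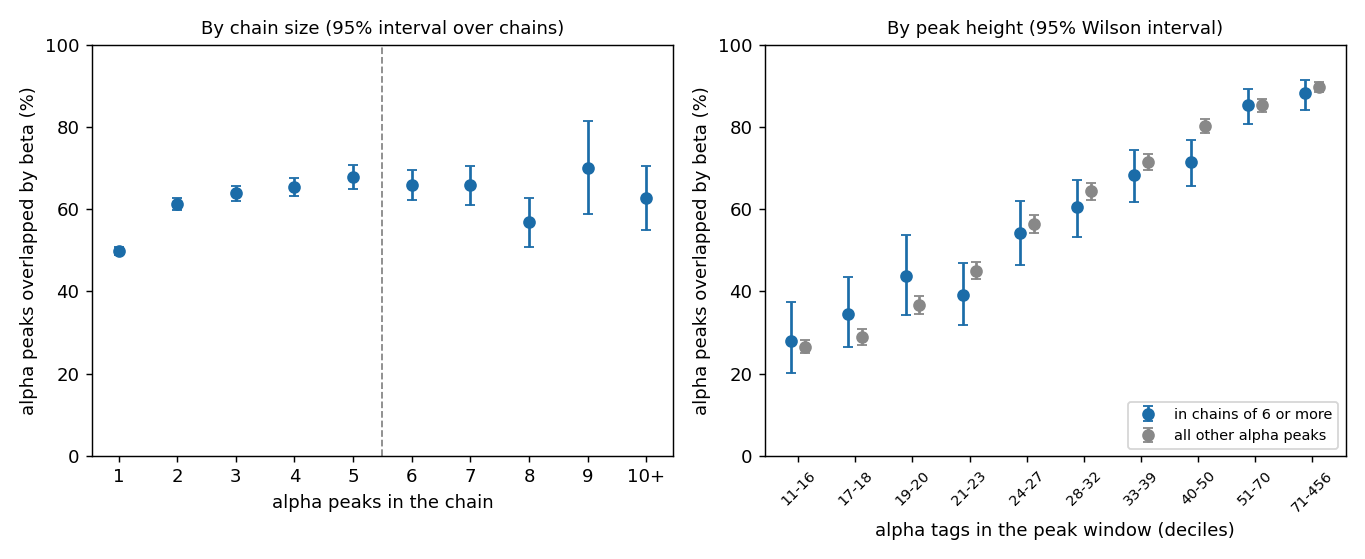
Share of alpha peaks overlapped by a beta peak, in percent, chromosome 8 left out. Left, by the number of alpha peaks in the chain, with chains of 6 or more to the right of the dashed line, where shares run from 56.9% to 70.1%; right, by alpha tags in the window, for peaks in chains of 6 or more and for all others, both rising from under 30% to over 85%.

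The tallest peak of a chain was shared in 223 of 260 chains (85.8%, interval 81.5 to 90) and the lowest in 102 (39.2%, 33.3 to 45.2). End peaks were shared in 63.1% and inner peaks in 65%, with overlapping intervals. Per chain, a median of 66.7% of the alpha peaks had a beta partner (quartiles 50 and 83.3), and 221 of 260 chains (85.0%) had at least 50%. All alpha peaks were shared in 18 chains and none in 3. By number of peaks and tags, the fully shared chains were led by 5 of 7 peaks each. They lay on chromosome 18 at 85053814 to 85079557, chromosome 15 at 85547543 to 85573343, chromosome 13 at 52915407 to 52928184, chromosome 16 at 93716201 to 93733454 and chromosome 13 at 41306782 to 41331946. In the first the alpha tags were 42, 76, 42, 60, 142, 56 and 186 and the beta tags 55, 168, 79, 218, 401, 189 and 225.

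The chains without a partner had mostly low peaks. They lay on chromosome 3 at 98100229 to 98119264, with 8 alpha peaks of 13, 15, 26, 22, 16, 15, 26 and 16 tags, on chromosome 16 at 34957702 to 34981777, with 7 of 34, 41, 18, 21, 43, 18 and 15, and on chromosome 2 at 30043537 to 30061884, with 6 of 17, 14, 20, 13, 26 and 18. The peaks of 41 and 43 tags on chromosome 16 were above the median of 36.0 for chain peaks. Input in the windows of these chains ran from 0 to 6 tags. The chromosome 3 chain held 1 beta peak, of 15 tags, 1230 bp from the nearest alpha centre, and the other chains had none. Next in order were the chain of 9 on chromosome 18 at 12818869 to 12848358, with 14 to 33 alpha tags and 1 partner of 22 beta tags, and the compact chain on chromosome 19 at 3665569 to 3674791, where the unmatched peak in place 5, with 63 tags, lay 412 bp from the shared peak in place 6, with 62 alpha and 109 beta tags. No beta count is given for a window without a beta peak, so absence of REV-ERB beta from these places is not shown.

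Very close neighbours were rarely shared together. Outside chromosome 8, 56 pairs of neighbouring alpha centres in chains were 398 to 527 bp apart, and both peaks had a partner in 1 pair (1.79%), 1 of the 2 in 44 (78.6%) and neither in 11. Of the 184 pairs at 528 to 1000 bp both were shared in 36.4%, and of the 256 pairs at 1001 to 2000 bp in 50.4%. At 5001 to 10000 bp it was 43.8%. The closest beta centres of the whole list were 528 bp apart, against 384 bp in the alpha list, so the beta list offers hardly any pair for the closest alpha neighbours. Among the 132 pairs within 1000 bp with 1 shared peak, the shared peak had more alpha tags in 94 (71.2%), with medians of 44.0 and 31.0 tags. Alpha peaks with another alpha centre within 1020 bp were shared in 57.0% in chains (interval 52.5 to 61.6) and 57.8% outside them (55.9 to 59.6). Those with the nearest centre at 1023 to 2132 bp were shared in 70.1% in chains (65.1 to 75.1).

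**Figure D3:**
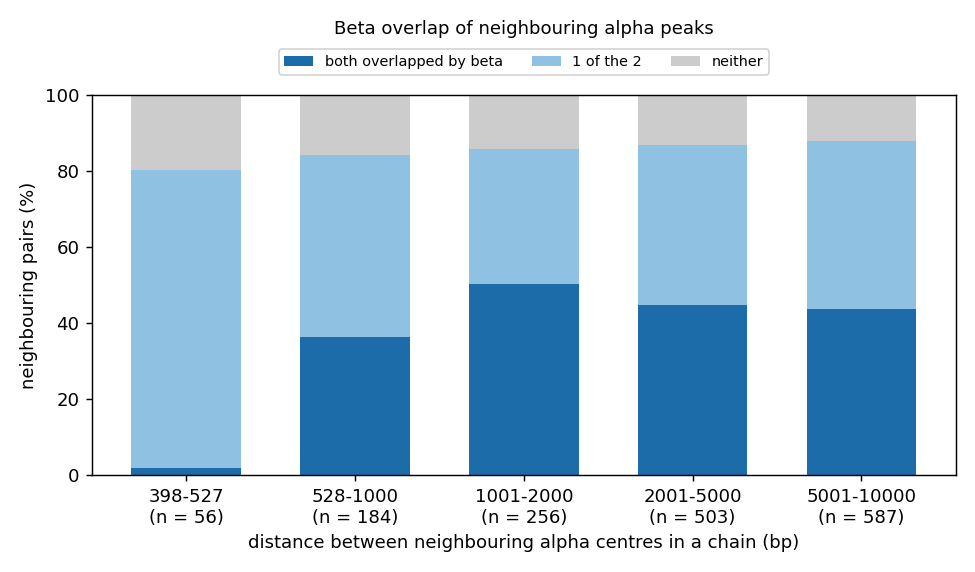
Neighbouring alpha peaks of the chains outside chromosome 8, by the distance between their centres in bp (horizontal axis, with the number of pairs); the stacked bars give the percent of pairs in which both, 1 or neither peak was overlapped by a beta peak. Both were overlapped in 1.79% of the closest pairs and in 36.4% to 50.4% of the wider ones.

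Beta peaks were dense between the ends of the alpha chains. There were 19.7 per 100 kb of chain, against 0.863 elsewhere on the 19 chromosomes, a ratio of 22.9. The rule picks stretches dense in alpha peaks, and most beta peaks overlap an alpha peak, so part of this ratio is set by the rule. A chain held a median of 5 beta peaks (quartiles 4 and 6), from 0 to 13.0. It had fewer beta than alpha peaks in 229 chains, as many in 24 and more in 7. The rule asks for 6 or more alpha peaks and counts beta peaks only between the end centres. Part of this difference in number is therefore set by the rule. Beta peaks in chains were also higher, with a median of 63.0 tags (quartiles 40.0 and 107) against 38.0 (25 and 64.0) elsewhere, and mean input was 4.02 and 3.56 tags. Of the 1259 beta peaks in chains 1031 (81.9%, interval over chains 79.7 to 84.1) overlapped an alpha peak, against 58.9% elsewhere and 60.3% of the whole beta list. The rule packs alpha peaks into the chains, so part of this overlap is set by the rule. Another 159 alpha peaks at chain ends had a beta partner whose centre lay just beyond the chain. With those counted, 83.9% overlapped.

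By the rule, the 228 beta peaks in chains without an alpha partner lay between the first and last alpha centres. These beta peaks held a median of 40.5 tags (quartiles 27.0 and 61.2), below the 69.0 of the beta peaks with a partner and above the 27.0 of unmatched beta peaks elsewhere. Their nearest alpha centre was a median of 1014 bp away, and 67 of them (29.4%) had one within 500 bp. In the other direction, the 656 unmatched alpha peaks held a median of 25 tags, against 43.0 at the 1190 shared ones, and their nearest beta centre was a median of 2082 bp away. The highest unmatched alpha peak of the chains, with 195 tags, was the second peak of the high-input chain on chromosome 1.

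The same rule applied to the beta list gave 264 beta chains with 1911 peaks. Of the 260 alpha chains outside chromosome 8, 123 (47.3%) crossed a beta chain, and 123 of the 264 beta chains (46.6%) crossed an alpha chain. Of the alpha peaks in alpha chains 752 of 1846 (40.7%) lay inside a beta chain, against 575 of 21200 other alpha peaks (2.71%) and 5.76% of all. The other alpha peaks lie in chains of fewer than 6, and 60.3% of all beta peaks overlap an alpha peak. Part of this contrast is therefore set by the rule. Fewer than 50% of the alpha chains crossed a beta chain. Between their ends 76 alpha chains held 6 or more beta peaks and 2 held none.

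The receptors had similar profiles within chains, but not always the same summit. In 123 chains with 5 or more shared peaks the Spearman rho of alpha and beta tags had a median of 0.66 (quartiles 0.35 and 0.89) and was above 0 in 111. In 128 of 251 chains with at least 2 shared peaks (51.0%) the tallest alpha peak was overlapped by the chain's tallest beta peak. Over the 1190 shared peaks of chains, log2 tags had a Pearson r of 0.69, and over the other 12124 shared peaks 0.65. Summed over each of 258 chains with a beta peak, log2 tags had an r of 0.68 and a rho of 0.72. These correlations describe 1 library of each antibody with a common input, and neighbouring peaks are not independent. The chain sums also share the number of peaks.

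**Figure D4:**
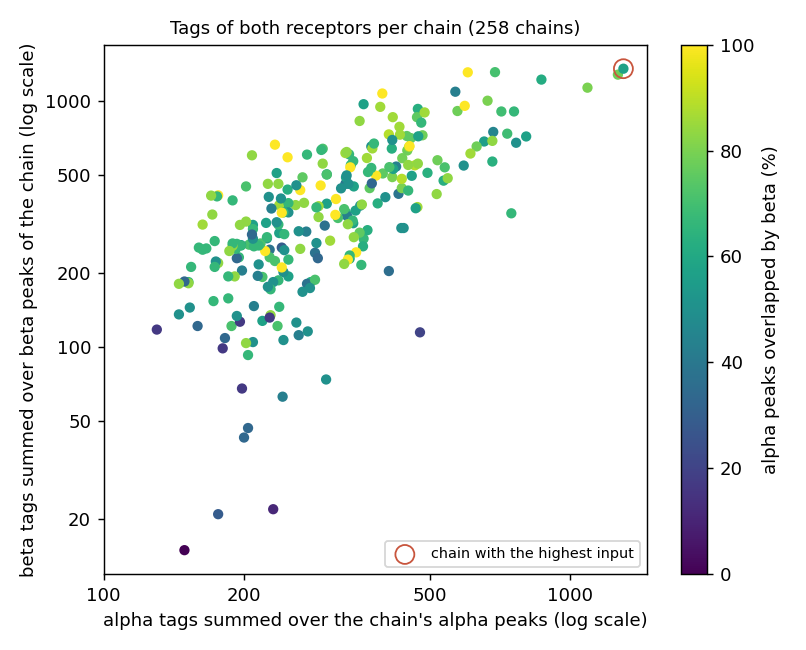
Summed alpha tags (horizontal, log scale) and summed beta tags (vertical, log scale) of 258 chains with at least 1 beta peak, coloured by the percent of alpha peaks that beta overlapped. Beta sums range from 15.0 to 1353 tags, and the circled chain with the highest input, 1303 alpha and 1353 beta tags, lies at the upper right.

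Fewer shared peaks in chains leaned to alpha than elsewhere. Their median ratio of alpha to beta tags was 0.645, against 0.692 at other shared peaks and 0.688 over all 13314, the value on which log2 ratios were centred. At least 2-fold above this centre were 69 of the 1190 chain peaks (5.80%, interval over chains 4.31 to 7.28), against 8.40% of all shared peaks and 8.65% of those outside chains. At least 2-fold below it, to beta, were 132 (11.1%, 8.94 to 13.2), against 9.71% of all and 9.58% outside chains. With tags plus 1 over input plus 1 as the measure, 126 chain peaks leaned to alpha, 10.6% in chains and 14.1% elsewhere, and 16.3% and 12.9% leaned to beta. Whether chains of 6 or more differ in this from smaller chains was not tested. Of shared peaks alone in their chain 9.55% leaned to alpha and 8.63% to beta, and in chains of 2 it was 8.68% and 9.72%. In chains of 4 it was 7.02% and 11.4%, in chains of 5, 7.24% and 11.4%, and in chains of 6, 6.38% and 11.6%. In chains of 9 it was 8.54% and 3.66%, and in chains of 10 or more 5.48% and 8.90%. The share to alpha was thus already lower in chains of 4 and 5 than at peaks alone. The lower share leaning to alpha was seen in 3 of 4 quartiles of height, taken as the geometric mean of the alpha and beta counts: 3.47% in chains and 8.5% elsewhere in the lowest, 5.91% and 10.7% in the second, and 3.85% and 5.79% in the highest. In the third it was 9.44% and 9.47%. The share leaning to beta followed no single order: from the lowest to the highest quartile it was 4.62%, 8.86%, 12.7% and 13.6% in chains and 3.13%, 10.8%, 11.4% and 13.5% elsewhere.

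Peaks of 1 chain resembled each other in this ratio only in part. Between chains the log2 ratio had an SD of 0.35 and within chains 0.64, over 251 chains, so 0.23 of the variance lay between chains. In 198 chains with 4 or more shared peaks the chain medians ran from -1.69 to 1.40 (quartiles -0.48 and 0.22). The median was at least 2-fold to alpha in 3 chains and at least 2-fold to beta in 7. All shared peaks lay on 1 side of the centre in 34 chains, on the alpha side in 8 and on the beta side in 26. How many such chains would arise with so few shared peaks per chain was not tested. The centred median over all shared chain peaks was -0.09, on the beta side.

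The chains at both ends of this order were singled out after their values were seen. On chromosome 17 at 56238774 to 56261561, 4 shared peaks held 32, 79, 87 and 77 alpha tags and 13, 71, 45 and 45 beta tags, so alpha exceeded beta at each of them. On chromosome 11 at 5385922 to 5410036, 5 shared peaks held 37, 13, 63, 40 and 27 alpha tags and 42, 69, 314, 188 and 31 beta tags. The centred log2 ratios of the inner 3 of these were -1.87, -1.78 and -1.69, each more than 2-fold to beta. Those of the outer ones were 0.36 and 0.34, within 2-fold of the centre. Beta tags exceeded alpha tags at all 5 shared peaks, so the raw counts did not change direction along this chain.

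**Figure D5:**
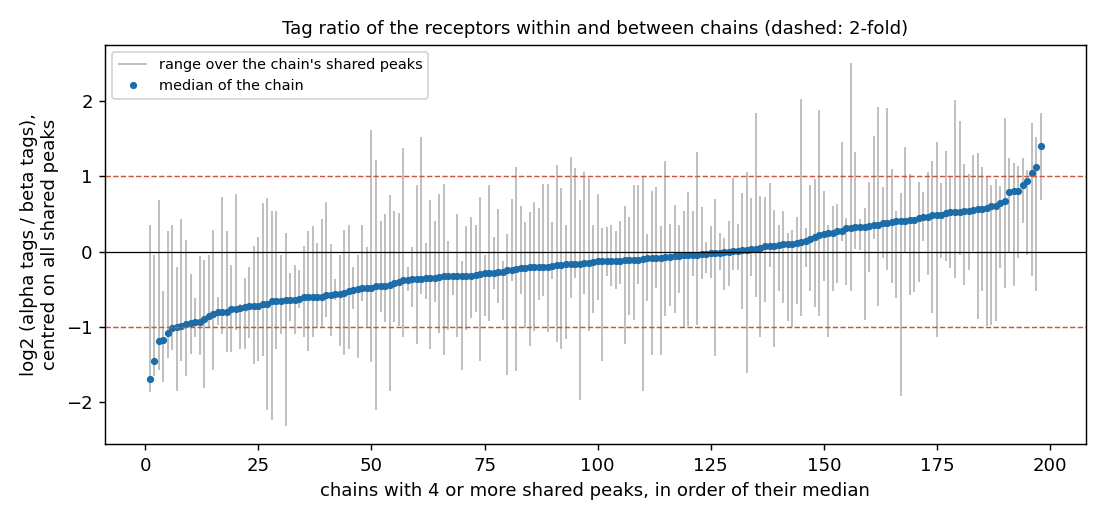
Log2 ratio of alpha to beta tags, centred on all shared peaks (vertical axis), for 198 chains with 4 or more shared peaks in order of their median (horizontal axis). Points are chain medians, from -1.69 to 1.40, grey lines span the shared peaks of the chain, and dashed lines mark 2-fold.

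Chromosome 8, which entered no comparison with beta, had chains like those elsewhere. Its 193 chain peaks held a median of 35.0 tags, against 36.0 on the other chromosomes, and a mean input of 3.00 against 3.02. The largest of its 26 chains, singled out after its values were seen, lay at 119832662 to 119879277. Its 11 alpha peaks held 18, 21, 22, 62, 69, 57, 61, 34, 26, 17 and 111 tags, with 0 to 8 input tags.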

How the data were processed

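The liver chromatin for all 3 libraries was fixed for 30 minutes in 2 mM disuccinimidyl glutarate and for 10 minutes in 1% formaldehyde, per the labels' protocols. Bowtie and HOMER were used with mm9, per the submitters' processing notes. The sources used here do not give versions, read filters or the tags sequenced in each library, so depth is unknown. Each deposited list comes from 1 library. It gives raw tag counts for the window (153 bp for alpha, 210 bp for beta), for unique positions, for 10000 bp around it and for input, per the file headers. These deposited counts are not scaled. The deposited peak score is the authors' and was not used. The deposited false discovery rate, treated as a p-value column, is 0 in every row and was not used.

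Peaks were sorted by centre and chained. The lists were matched by an overlap of at least 1 bp. Ratios were centred on their median over all 13314 shared peaks, and a size of 2-fold stood in place of a test. Shares have 95% Wilson intervals or, where named, intervals over chains from a linearised ratio estimator. Both cover counting or the spread over chains, not libraries, and repeated tags at 1 position may be copies of 1 molecule. Chaining, matching and the ratio rule were tested on simulated data. The chains named are the 10 with most alpha peaks, the 5 each with most alpha tags, most peaks per kb and highest mean input, and, without chromosome 8, the 5 each with the highest and lowest shared share, ties by number of peaks and tags. The members and lists were chosen with earlier results of these data known. Planned gene lists and motifs need mm9 annotation and sequence and were not run. The software was numpy 2.4.6, pandas 2.3.3 and scipy 1.17.1 under Python 3.11.15, with matplotlib 3.10.9 for plots.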

Additional observations from a re-analysis of the deposited data

Results flagged for a closer look

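The 193 alpha peaks in chains on chromosome 8 held a mean of 44.5 tags, where input averaged 3.00 tags, in data that entered no comparison with beta. With 1 library each, libraries could not be screened for outliers.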

How the results depend on the processing

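With 1 library per antibody no library could be left out, and no paired analysis was possible because there is only 1 library in each group. The number of chains and members follows the rule. With neighbours at most 5000 bp apart there were 23 chains with 152 alpha peaks, with 20000 bp 713 and 5933, with chains of 5 or more 526 and 3239, with chains of 8 or more 74 and 696, and with alpha peaks limited to 8-fold or more over input 112 and 769. The share of chain peaks overlapped by beta left its interval with chains of 8 or more (61.7%), with 50% overlap (56.8%) and with centres within 100 bp (60.7%) or 500 bp (70.5%), and it stayed above that of the other peaks in each of these. For other peaks these were 57.7%, 50.7%, 53.9% and 60.8%. The share of beta peaks in chains that overlap alpha was 92.6% at 5000 bp, 77.1% at 20000 bp, 86.3% with the input limit, 72.6% with 50% overlap, 77.8% and 87.2% with centres within 100 and 500 bp, and 83.9% with the end partners, an alternative chosen after the data were seen. Peaks leaning to alpha and to beta numbered 1 and 6 of 90 at 5000 bp, 231 and 379 of 3535 at 20000 bp, 123 and 217 of 1936 in chains of 5 or more, 22 and 32 of 369 in chains of 8 or more, and 24 and 38 of 456 with the input limit, each with more to beta. All shared peaks under the main rule also had more to beta, 9.71% against 8.40% to alpha. This order was therefore not particular to chains under that rule. The distance and chain size limits leave the set of shared peaks unchanged, so these shares over all shared peaks hold there too. Against them, the share of chain peaks leaning to alpha was lower under each of these limits. The share leaning to beta was higher at 20000 bp and in chains of 5 or more. It was lower at 5000 bp and in chains of 8 or more. With the input limit shares over all shared peaks were not computed. With tags plus 1 over input plus 1, 126 (10.6%) leaned to alpha and 194 (16.3%) to beta, against 13.8% and 13.2% of all shared peaks. Median alpha tags were 44.0 at 5000 bp, 38.0 in chains of 8 or more, 44.0 with the input limit, and 30.0 at unique positions. Mean input was 3.17 at 5000 bp and 2.70 with the input limit. The distance, chain size and input limits change which peaks are members, the overlap and centre rules and the other measures do not, and the cause of these shifts was not tested. Of 75 alternative values, 37 stayed within the limits set. Without the high-input chain on chromosome 1, also chosen later, every value stayed within the limits.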
